A study of Homo sapiens with 6 samples.

Results

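The 4 tropomyosin genes TPM1, TPM2, TPM3 and TPM4, the actin genes ACTB, ACTG1 and ACTA2, and the smooth muscle filament genes TAGLN, CNN1 and MYL9 were described across 6 RNA-seq libraries. They were chosen by gene name and are 10 of the 58735 genes in the deposited table. The cells came from the human induced pluripotent stem cell line Ff-I01s01, genotype WT, which had been differentiated towards pancreatic progenitors. The treated cultures were given K-3, a compound known here only by that code, at 2 µM between day 6 and day 8 in a step named S3 (n = 3 libraries). The Control cultures passed through the same step over the same days without K-3 (n = 3). The question named for the study is what K-3 does to the differentiation of these cells. All cultures derive from a single line, so nothing here speaks to other lines.

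Tropomyosins are coiled-coil proteins that lie end to end along the actin filament and control which myosins and filament-severing proteins can reach it. Actin exists as cytoplasmic forms made by nearly every cell (beta from ACTB, gamma from ACTG1) and as muscle forms, among them the smooth muscle alpha form from ACTA2. Transgelin (TAGLN), calponin 1 (CNN1) and the myosin light chain from MYL9 sit on contractile filaments and are widely read as signs of smooth muscle or of stress fibres. Many of these genes are known targets of serum response factor (SRF) and its actin-sensing partners MRTFA and MRTFB, which bind a promoter element called the CArG box.

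With K-3, TPM1 fell by a small amount, 0.20 on the log2 scale, and the other 8 tested genes did not pass the test. ACTA2 was below the level at which genes were tested. The TPM1 call was lost in 8 of 14 other settings, with the same sign in all 14. Levels in the set ran from 0.330 FPKM for ACTA2 to 1898 FPKM for ACTG1 with K-3. FPKM are fragments scaled to the length of a gene's annotated exons and to the size of the library.

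**Figure D1:**
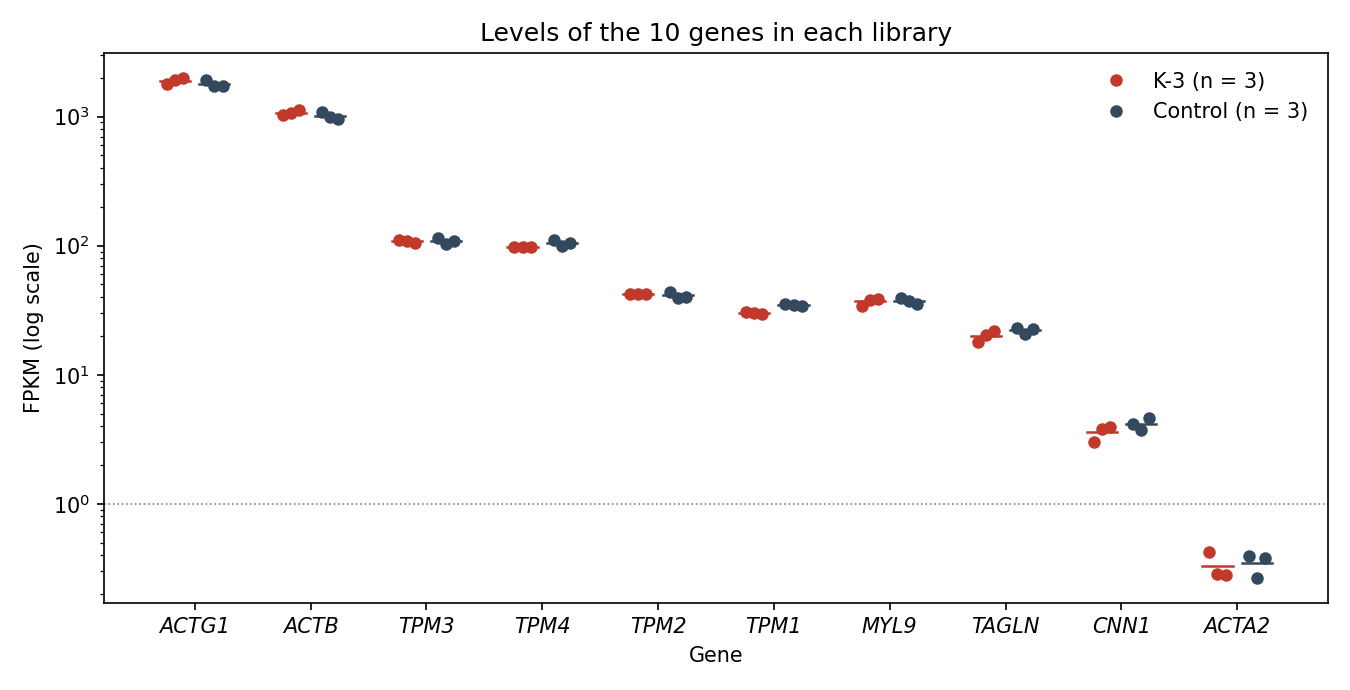
FPKM on a log axis for each of the 10 genes in each library, with K-3 libraries in red, Control libraries in dark blue and a short line at each group's mean. The dotted line at 1 FPKM is the lowest mean at which a gene was tested, and ACTA2 is the single gene below it.

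The total assigned to genes was 41876557 to 50245547 fragments per K-3 library and 35371195 to 38809532 per Control library, so all K-3 libraries were deeper. All 13 markers of pancreatic progenitors and endoderm were expressed, with a summed level of 1604 to 1716 FPKM with K-3 and 1614 to 1790 FPKM in Control. The largest part was the keratin gene KRT19, at 607 FPKM with K-3 and 707 FPKM in Control, so the sum hides the lower genes. PDX1 averaged 22.2 and 14.3 FPKM and SOX9 5.13 and 3.65 FPKM, neither with overlap. HNF4A and ONECUT1 had slightly lower means with K-3, with overlap. None of the 13 passed the test described below. The 5 smooth muscle markers MYH11, DES, LMOD1, MYOCD and SYNPO2 summed to 0.613 to 0.826 FPKM with K-3 and 0.429 to 0.713 FPKM in Control, and none reached a mean of 1 FPKM. MYH11, the smooth muscle myosin heavy chain gene, averaged 0.0350 FPKM with K-3 and 0.0351 FPKM in Control, and most of the sum was LMOD1. The defining genes of smooth muscle were thus low or near 0 in the cells in which the 10 genes were measured. The labels do not state that the libraries of a group come from separate differentiations, so the spread behind each p-value may be technical. These are bulk samples, in which fewer cells of a type and less RNA per cell cannot be told apart.

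The sequences below show how far the family members can be told apart by sequencing. They are coding bases from GENCODE release 29 transcripts on build GRCh38, in the sense direction. The first pair is the start of the ACTB and ACTG1 coding sequences, with capitals at the 10 of the first 60 bases that differ between them. ACTB lies on the - strand and its bases cover chr7:5529598-5529657 in exon 2. ACTG1 is also on the - strand and its bases cover chr17:81512295-81512354 in exon 2.
ACTB: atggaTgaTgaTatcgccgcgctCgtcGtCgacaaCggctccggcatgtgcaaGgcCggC
ACTG1: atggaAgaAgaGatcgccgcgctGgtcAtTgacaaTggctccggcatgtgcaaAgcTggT
The differences are single bases, spread along the sequence. Over the whole coding sequence the pair was 91.3% identical, and its longest unbroken identical run was the following 59 bases, coding bases 832 to 890 in both genes (chr7:5528098-5528156 for ACTB and chr17:81511021-81511079 for ACTG1, exon 5 in each).
ACTB and ACTG1: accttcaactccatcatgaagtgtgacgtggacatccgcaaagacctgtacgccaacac
ACTA2 was 82.0% identical to each of them, with longest runs of 32 bases with ACTB and 26 bases with ACTG1. The full-length coding sequences of the 4 tropomyosins were 71.9% to 78.8% identical in pairs, with runs of at most 38 bases. Of the pairs compared, ACTB and ACTG1 had the highest identity and the longest shared run.

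TPM1 makes long and short proteins from separate starts, and the second pair shows both. The long form has 284 codons and starts at chr15:63042830-63042889 on the + strand, and the short form has 248 codons and starts at chr15:63048576-63048635, each in the first exon of its transcript. Capitals mark the 40 of 60 bases that differ.
TPM1 long: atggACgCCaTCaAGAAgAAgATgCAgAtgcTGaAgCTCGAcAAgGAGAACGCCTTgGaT
TPM1 short: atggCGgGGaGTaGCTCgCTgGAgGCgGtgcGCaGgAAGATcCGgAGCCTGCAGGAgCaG
The starts are separate exons, but the deposited table holds 1 total per gene. The long and the short forms are therefore summed in each TPM1 value.

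TPM1 (ENSG00000140416, chromosome 15 from 63042632 to 63071915, + strand) encodes alpha-tropomyosin. It had 30.5, 30.2 and 29.8 FPKM in the K-3 libraries, against 35.02, 34.97 and 34.15 FPKM in the Control libraries. The highest K-3 library lay below the lowest Control library. The means were 30.2 ± 0.395 FPKM with K-3 and 34.7 ± 0.486 FPKM in Control (SD, n = 3 each), so the K-3 mean was 86.9% of the Control mean. TPM1 fell, with a log2 fold change of -0.20 (SE 0.04, 95% interval -0.28 to -0.11) and an adjusted p of 0.0470 by limma. Its spread within groups was narrow: 1.09% of the tested genes had a smaller one. These values rest on 52949 fragments with K-3 and 50519 in Control. The size of the fall was stable, between -0.23 and -0.18 over 14 other settings, but the adjusted p passed 0.05 in 6 of them and ranged from 0.0212 to 0.182. It was 0.135, 0.175 and 0.122 without K-3 replicates 1, 2 and 3, 0.0714 and 0.152 without Control replicates 2 and 3, and 0.0442 without Control replicate 1. With the libraries rescaled by a trimmed mean of ratios it was 0.0525. TPM1 shares 16.1% of its exon bases with TPM1-AS on the opposite strand, which had a mean of 0.207 FPKM.

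Of the 12989 genes tested, 2.04% were called, 0.901% lower (117 genes) and 1.14% higher (148) with K-3, and 27.4% had groups that did not overlap. Rescaling to equal summed FPKM without mitochondrial-encoded genes turned this split to 152 lower and 117 higher. Among the 9 tested members, 1 was called lower, 0 were called higher, and the groups of 2, TPM1 and TPM4, did not overlap, a share close to the background. In limma 0 members were higher also at an unadjusted p under 0.05, where 1519 of all tested genes were higher and 1347 lower. Limma voom on recovered fragments called 0 members higher and 1 lower, and 412 and 400 of all tested genes. The median log2 fold change of the 9 was -0.01, and that of all tested genes was 0.01.

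**Figure D2:**
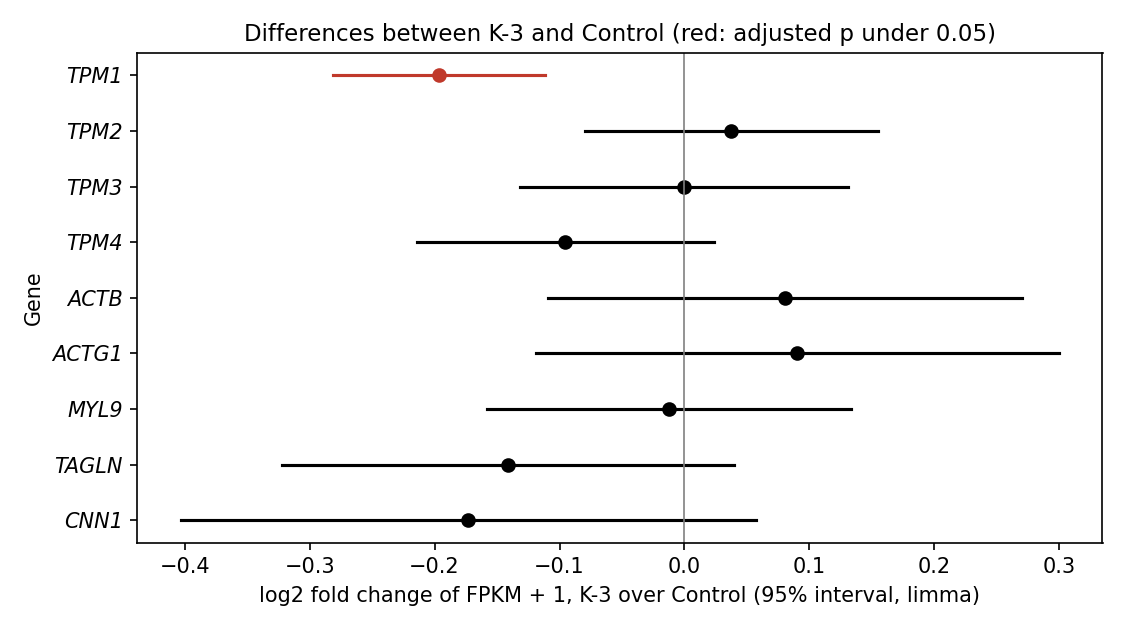
Log2 fold change of FPKM + 1, K-3 over Control, for the 9 tested genes, as points with the 95% interval from limma. TPM1 at -0.20 is the one gene past an adjusted p of 0.05 (red), and the intervals of the other 8 include 0.

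TPM4 (ENSG00000167460, chromosome 19 from 16067021 to 16103005, + strand) encodes a tropomyosin abundant outside muscle. Its annotated transcripts include a full-length form, and all its forms are summed in its value. It had 98.0, 98.2 and 96.7 FPKM with K-3, against 109.6, 98.7 and 105.2 FPKM in Control. The groups did not overlap, but Control replicate 2 was close to the K-3 libraries. The log2 fold change of -0.10 had a 95% interval of -0.21 to 0.02 and an adjusted p of 0.316 (limma), so it did not pass. Of its exon bases 9.60% are shared with AC008894.3, a gene on the opposite strand with a mean of 0.751 FPKM.

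TPM3 (ENSG00000143549, chromosome 1 from 154155304 to 154194648, - strand) encodes gamma-tropomyosin. It had 111.3, 109.4 and 105.6 FPKM with K-3, against 115.4, 102.4 and 108.9 FPKM in Control. The K-3 libraries lay inside the Control range. Its log2 fold change was -0.00019 with a 95% interval of -0.13 to 0.13, and its sign turned under 4 of the 14 other settings. The interval corresponds to a change between -8.72% and 9.52%, so a fall the size of TPM1's lies outside it.

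TPM2 (ENSG00000198467, chromosome 9 from 35681992 to 35690121, - strand) encodes beta-tropomyosin, a form of skeletal and smooth muscle. It had 42.1, 42.1 and 42.2 FPKM with K-3, against 43.9, 39.2 and 40.1 FPKM in Control. The K-3 libraries were nearly equal and lay inside the Control range. Their coefficient of variation was 0.0784%, where counting error for fragments of this number would give about 1.27%, so the equality is closer than counting allows on average. The log2 fold change of 0.04 had a 95% interval of -0.08 to 0.15 and an adjusted p of 0.693 (limma).

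The order of the tropomyosins depends on the gene length used. Per length of all annotated exons, TPM3 and TPM4 stood highest and TPM1 lowest, and TPM3 and TPM4 overlapped in Control. The table gives TPM1 a length of 12876 bases, which equals the summed exons of its 34 annotated transcripts, while the median length of its 17 coding transcripts in the GENCODE basic set is 1100 bases. Scaled to that median, TPM1 had 353 ± 4.62 with K-3 and 406 ± 5.69 in Control, in the units of FPKM with that length in place of the gene's. TPM2 had 116 ± 0.0905 with K-3 and 113 ± 6.79 in Control on this scale, so TPM1 then stood above TPM2, the reverse of their order in FPKM. TPM3, at 515 ± 13.9 with K-3 and 516 ± 30.6 in Control, was highest on both scales. This rescaling, chosen after the data had been seen, multiplies a gene's value in all libraries alike, so its fold change stays as it was, but it changes the gene's share of the family.

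Within a library, the 4 genes can be set against each other without any scaling between libraries. TPM1 made up 10.8%, 10.8% and 10.9% of the summed tropomyosin FPKM with K-3, against 11.5%, 12.7% and 11.8% in Control. Its mean share was 10.8 ± 0.0357% with K-3 and 12.0 ± 0.607% in Control (SD, n = 3 each). TPM4 had 35.03 ± 0.260% with K-3 and 36.1 ± 0.322% in Control. TPM3 had 39.0 ± 0.491% with K-3 and 37.6 ± 0.399% in Control, and TPM2 had 15.1 ± 0.231% with K-3 and 14.2 ± 0.276% in Control. The groups did not overlap for any of the 4 shares of FPKM, but those of TPM4 did overlap as shares of fragments and as shares per median transcript length (37.0 ± 0.319% with K-3 and 37.6 ± 0.380% in Control, and 25.7 ± 0.229% with K-3 and 26.05 ± 0.413% in Control). Each had an exact permutation p of 0.1, two-sided, the smallest that 3 against 3 libraries can give, and 0.167 after adjustment over the 10 shares tested, so none passed. The 4 shares of a library sum to a whole and are not independent. The summed tropomyosin level was 279 ± 4.05 FPKM with K-3 and 289 ± 14.3 FPKM in Control, and these groups overlapped (exact permutation p = 0.3).

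**Figure D3:**
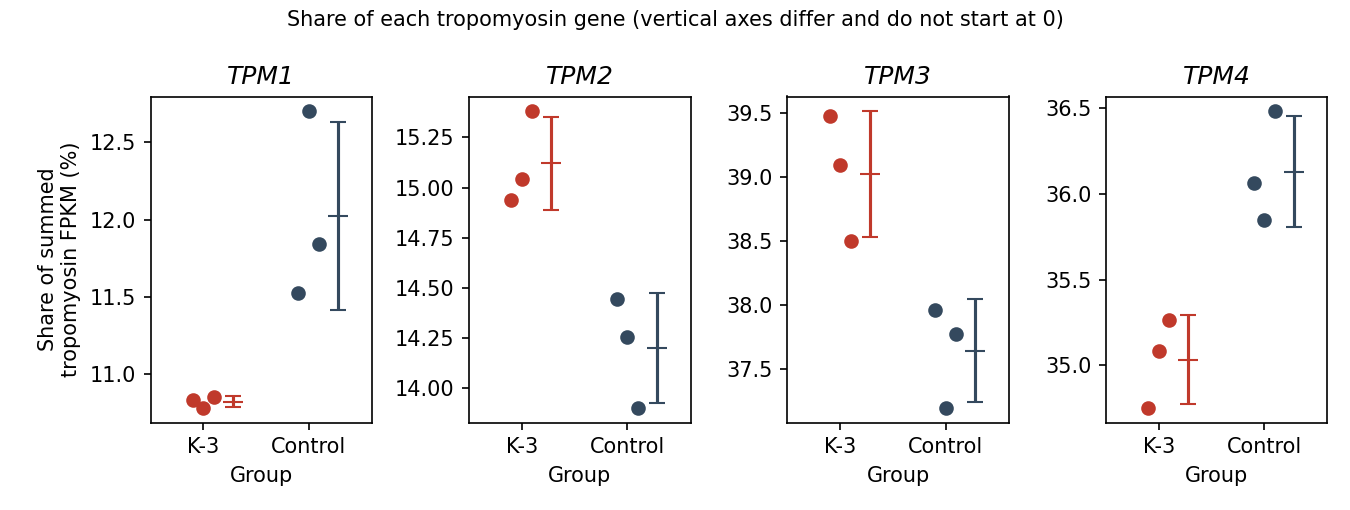
Share of each tropomyosin gene in the summed FPKM of the 4 genes, in percent, for each library (points) with mean and SD (bars); the vertical axes differ and do not start at 0. TPM1 and TPM4 shares are lower in all K-3 libraries and TPM2 and TPM3 shares are higher.

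The TPM3 share was sensitive to pseudogene copies. The table lists 8 genes named as TPM3 pseudogenes, with a summed mean of 15.1 FPKM, most of it in TPM3P9. TPM3P9 had 10.5, 11.4 and 9.99 FPKM with K-3, against 14.6, 12.3 and 16.9 FPKM in Control (log2 fold change -0.42, limma adjusted p = 0.0869, named after its values were seen). All K-3 libraries were below all Control libraries, but the difference did not pass. With the copies added to TPM3, its share was 41.7 ± 0.490% with K-3 and 41.2 ± 0.752% in Control. The groups then overlapped, and the difference was within the spread between libraries. Fragments can be split between TPM3 and its copies, so the TPM3 and TPM3P9 values are uncertain.

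ACTG1 (ENSG00000184009, chromosome 17 from 81509971 to 81523847, - strand) ranked 5 among all genes by mean FPKM. It had 1797, 1909 and 1988 FPKM with K-3, against 1901, 1717 and 1730 FPKM in Control. Control replicate 1 lay among the K-3 libraries, so the groups overlapped. Its log2 fold change was 0.09 with a 95% interval of -0.12 to 0.30 (limma adjusted p = 0.586).

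ACTB (ENSG00000075624, chromosome 7 from 5527147 to 5563784, - strand) ranked 16. It had 1028, 1058 and 1125.2 FPKM with K-3, against 1085, 995 and 958 FPKM in Control. The libraries stood in nearly the same order as for ACTG1, with Control replicate 1 again among the K-3 libraries. ACTB had a log2 fold change of 0.08 with a 95% interval of -0.11 to 0.27 (limma adjusted p = 0.593). The interval spans a change from -7.31% to 20.6%, which is wider than that of any tropomyosin. The ratio of ACTG1 to ACTB was 1.75, 1.80 and 1.77 with K-3 and 1.75, 1.73 and 1.81 in Control, and it did not separate the groups (exact permutation p = 0.8). Named pseudogenes of ACTG1 and ACTB had summed means of 2.09 and 0.214 FPKM, small beside the genes themselves.

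ACTA2 (ENSG00000107796, chromosome 10 from 88935074 to 88991339, - strand), the smooth muscle alpha-actin gene, had 0.424, 0.287 and 0.279 FPKM with K-3, against 0.396, 0.268 and 0.383 FPKM in Control. The groups overlapped, and the values came from 64, 37 and 35 fragments with K-3 and 45, 31 and 41 fragments in Control. Its mean lay below 1 FPKM, so it was not part of the test; with no minimum, its adjusted p was 0.915 (limma). ACTA2 shares 17.3% of its exon bases with ACTA2-AS1 and 12.8% with FAS, both on the opposite strand, with means of 0.00249 and 0.0306 FPKM. It made up 0.0111 ± 0.00328% of the summed actin FPKM with K-3 and 0.0124 ± 0.00227% in Control.

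Other muscle actins were higher than ACTA2 in these cells. ACTA1, the skeletal alpha-actin gene, had 11.2, 13.2 and 13.9 FPKM with K-3, against 15.4, 13.4 and 13.3 FPKM in Control. ACTC1, the cardiac alpha-actin gene, had 5.28, 7.13 and 7.61 FPKM with K-3, against 8.77, 7.52 and 8.56 FPKM in Control. For each of them the K-3 range reached into the Control range, and neither passed (log2 fold changes -0.13 and -0.29, limma adjusted p = 0.428 and 0.219). As shares of the summed actin FPKM both were lower in all K-3 libraries, 0.426 ± 0.0285% with K-3 and 0.497 ± 0.0123% in Control for ACTA1, and 0.222 ± 0.0318% with K-3 and 0.294 ± 0.0204% in Control for ACTC1. Each share had an exact permutation p of 0.1, the smallest possible. ACTG2, the enteric smooth muscle gamma-actin gene, had 0.692 ± 0.0405 FPKM with K-3 and 0.580 ± 0.160 FPKM in Control and was not tested, and ACTBL2 had 0 fragments in all libraries.

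TAGLN (ENSG00000149591, chromosome 11 from 117199321 to 117204782, + strand) had 18.0, 20.2 and 21.8 FPKM with K-3, against 23.2, 20.5 and 22.8 FPKM in Control. K-3 replicate 1 was the lowest library, and K-3 replicate 3 lay inside the Control range. TAGLN had a log2 fold change of -0.14 with a 95% interval of -0.32 to 0.04 (limma adjusted p = 0.329). TAGLN shares 11.4% of its exon bases with PCSK7 on the opposite strand, which had a mean of 1.22 FPKM.

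CNN1 (ENSG00000130176, chromosome 19 from 11538717 to 11550323, + strand), which encodes calponin 1, an inhibitor of myosin ATPase activity in smooth muscle, was much lower in level. It had 2.99, 3.78 and 3.97 FPKM with K-3, against 4.16, 3.70 and 4.59 FPKM in Control. As for TAGLN, K-3 replicate 1 was lowest and the groups overlapped. Its K-3 mean was 86.2% of the Control mean, close to the figure for TPM1, but its spread was larger than that of 86.7% of the tested genes. The log2 fold change of -0.17 had a 95% interval of -0.40 to 0.06 and an adjusted p of 0.343 (limma). A fall as large as that of TPM1 and a change of 0 both lie inside the intervals of CNN1 and TAGLN.

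MYL9 (ENSG00000101335, chromosome 20 from 36541484 to 36551447, + strand), the regulatory light chain of smooth muscle and non-muscle myosin, had 34.1, 38.2 and 38.6 FPKM with K-3, against 39.2, 37.2 and 35.3 FPKM in Control. The groups overlapped. MYL9 had a log2 fold change of -0.01 with a 95% interval of -0.16 to 0.13 (limma adjusted p = 0.927), and its sign turned under 3 of the 14 other settings. K-3 replicate 1 was thus the lowest library for TAGLN, CNN1 and MYL9 alike. It was also the deepest library, and any part of depth in these values was not tested.

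RefSeq promoter sequences (GRCh38.p14, from 250 bases before the start of a transcript to 50 after it) were found for 7 of the 10 genes, 12 promoters in all; TAGLN, MYL9 and ACTB had none in the table used. A CArG box, searched on both strands, was present in 2 of the 12, 1 of TPM4 and 1 of ACTG1, and in 1.29% of 35116 promoters. Windows of 60 bases around the 2 matches are shown because the box is the element that SRF is known to bind; it is in capitals. The TPM4 window is chr19:16067340-16067399 on the + strand and its box begins 173 bases before the start. The ACTG1 window is chr17:81512859-81512918 on the - strand and its box begins 94 bases before the start.
TPM4: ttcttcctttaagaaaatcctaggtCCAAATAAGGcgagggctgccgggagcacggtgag
ACTG1: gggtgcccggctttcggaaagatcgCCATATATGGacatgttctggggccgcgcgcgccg
Neither gene passed the test. A match is a stretch of letters and not a measured binding site, and the lack of one in the other 10 promoters says only that these letters are not in those windows.

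Companion lists of actin cytoskeleton and muscle genes held 96 genes besides the 10, of which 65 were tested. With limma 0 of the 65 were called higher and 2 lower, among them TTN, against 1.14% and 0.901% of all tested genes. An unadjusted p under 0.05 was reached by 6 higher and 8 lower genes, and limma voom called 2 higher and 5 lower. Of all 12989 tested genes, 1519 higher and 1347 lower reached an unadjusted p under 0.05 in limma. Voom called 412 of them higher and 400 lower. The counts of single lists below stand beside this same background and are not results about the lists. The median log2 fold change over the 65 was 0.01, like that of all genes.

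**Figure D4:**
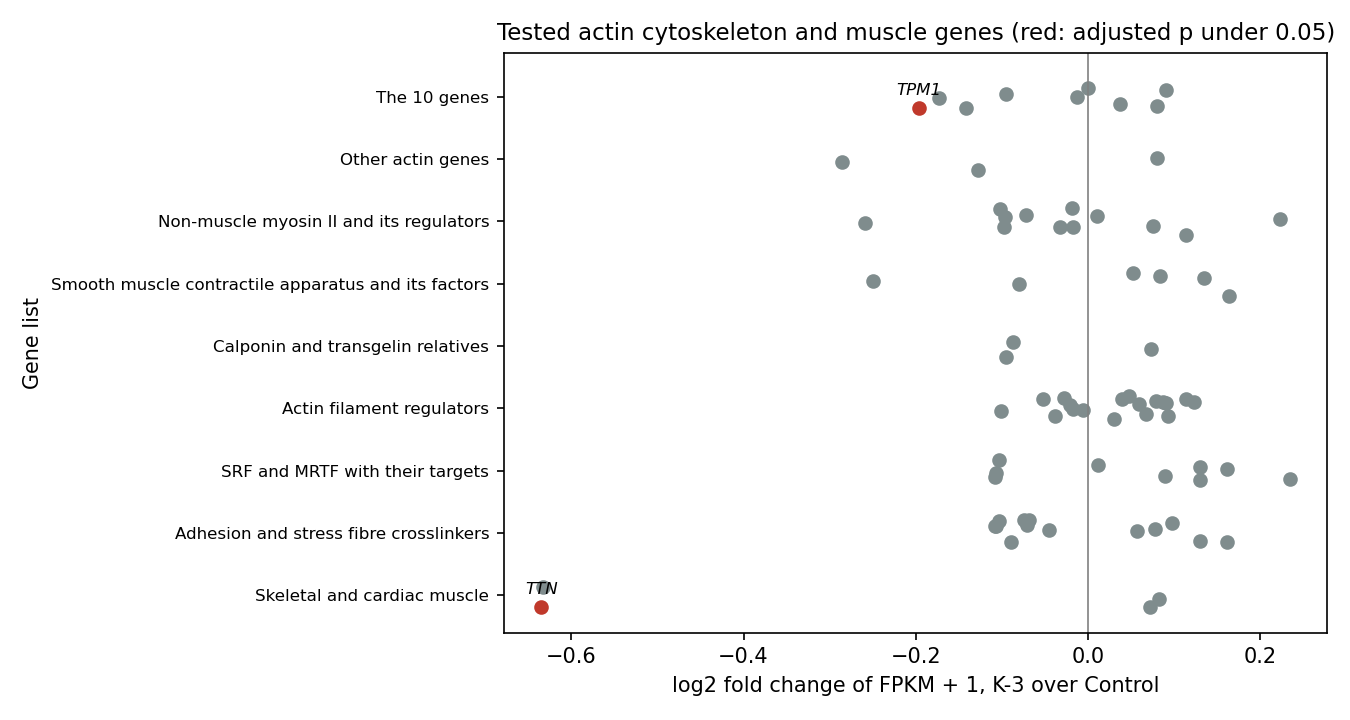
Log2 fold change of FPKM + 1, K-3 over Control, for the tested genes of the 10 and of 8 companion lists, apart from those not reported here, with a row per list; a gene in 2 lists is drawn in both. TPM1 and TTN (red, named) passed an adjusted p of 0.05, and both lie below 0.

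Of the 14 genes of the adhesion and stress fibre crosslinker list all were tested, and 1 was called lower and 0 higher in limma, with 2 lower and 1 higher at an unadjusted p under 0.05 and 1 lower by voom. Their median log2 fold change was -0.07.

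TTN encodes titin, the giant spring protein of striated muscle. It had 2.41, 2.34 and 2.10 FPKM with K-3, against 3.55, 3.80 and 5.07 FPKM in Control. The groups did not overlap and TTN fell (log2 fold change -0.63, SE 0.11, limma adjusted p = 0.0403), on 37174 fragments with K-3 and 55361 in Control. It shares 9.57% of its exon bases with TTN-AS1 on the opposite strand, which had 0.101 FPKM. The call was kept in 7 of 13 other settings, and its adjusted p was 0.113, 0.138 and 0.122 without K-3 replicates 1, 2 and 3 and 0.0666 without Control replicate 3. Of the 18 skeletal and cardiac muscle genes 14 were too low to test, the myogenic factor MYOD1 had 0 fragments in all libraries, and the other 3 tested genes did not pass. TNNC1, the calcium-binding troponin of cardiac and slow muscle, named after its values were seen, had 1.32, 1.503 and 2.54 FPKM with K-3, against 3.70, 3.22 and 2.86 FPKM in Control (adjusted p = 0.0859, limma). MYL7 and MYL4, the remaining tested genes, had higher levels than TNNC1 and small positive log2 fold changes, 0.07 and 0.08 (limma adjusted p = 0.409 and 0.664).

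The non-muscle myosin heavy chains differed in sign. MYH9, the heavy chain of myosin IIA, had 95.7, 100.6 and 104.9 FPKM with K-3, against 126.7, 114.7 and 119.5 FPKM in Control. MYH10, the heavy chain of myosin IIB, had 229, 234 and 231 FPKM with K-3, against 201, 209 and 184 FPKM in Control. Neither pair of groups overlapped, but neither gene passed (log2 fold changes -0.26 and 0.22, limma adjusted p = 0.0668 and 0.0983). By limma voom both passed, with an adjusted p of 0.0217 for MYH9 and 0.0411 for MYH10. MYH9 passed in 4 of 14 other settings and MYH10 in 1. The ratio of MYH10 to MYH9 within a library was 2.40, 2.33 and 2.20 with K-3, against 1.59, 1.82 and 1.54 in Control. This ratio, taken after the values were seen, had an exact permutation p of 0.1, the smallest possible. The other 10 tested genes of the myosin II list, among them the kinase genes ROCK1 and ROCK2 and the GTPase gene RHOA, lay between -0.10 and 0.11.

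Of the 14 genes of the smooth muscle contractile list, 7 were tested and 0 passed in limma. An unadjusted p under 0.05 was reached by 3 higher genes and 1 lower gene, and voom called 1 each way. CALD1, which encodes caldesmon, an actin-binding regulator that works with tropomyosin, had 46.0, 48.4 and 46.2 FPKM with K-3, against 58.3, 52.8 and 56.7 FPKM in Control (log2 fold change -0.25, adjusted p = 0.0566). The CALD1 groups did not overlap, and CALD1 passed in 5 of 14 other settings.

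SRF and its partners did not pass. SRF had 22.1, 23.2 and 24.8 FPKM with K-3, against 23.1, 21.1 and 19.6 FPKM in Control, MRTFA averaged 10.7 ± 0.300 FPKM with K-3 and 10.6 ± 0.389 FPKM in Control, and MRTFB averaged 7.71 ± 0.365 FPKM with K-3 and 7.21 ± 0.782 FPKM in Control. The groups of all 3 overlapped. Besides the members, 9 genes of this list were tested and 0 passed in limma (unadjusted p under 0.05 in 1 higher and 1 lower, 0 calls by voom). The pair with the smallest p-values was made of the alpha-actinin genes ACTN4 and ACTN1, whose proteins bundle actin filaments, with log2 fold changes of -0.11 and 0.16 (limma adjusted p = 0.216 and 0.220). ACTN4 shares 14.2% of its exon bases with CAPN12 on the opposite strand.

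Among 18 tested actin filament regulators 0 passed in limma (unadjusted p under 0.05 in 1 higher and 1 lower, 0 calls by voom), and their log2 fold changes lay between -0.10 and 0.12. The pair with the smallest p-values was CTTN, which encodes the branch-binding protein cortactin (-0.10, adjusted p = 0.192), and PFN2, which encodes a profilin (0.12, adjusted p = 0.196). Of the 4 relatives of calponin and transgelin, 3 had higher levels per length than CNN1 and TAGLN, while TAGLN3 averaged 0.105 FPKM with K-3 and 0.103 FPKM in Control and was not tested. CNN3 averaged 120 ± 5.17 FPKM with K-3 and 128 ± 6.37 FPKM in Control, CNN2 averaged 63.5 ± 2.29 FPKM with K-3 and 60.4 ± 3.07 FPKM in Control, and TAGLN2 averaged 42.1 ± 0.427 FPKM with K-3 and 44.8 ± 2.24 FPKM in Control. None of the 3 tested genes passed (limma adjusted p = 0.364, 0.444 and 0.317; 0 at an unadjusted p under 0.05 and 0 by voom).

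Genes with profiles like those of members were sought among 11173 protein-coding genes, by the root mean square difference of centred log2(FPKM + 1) over the 6 libraries. Nearest to TPM1 were MPZL3, CDYL2 and SELENOI, at 0.0166, 0.0173 and 0.0227, where TPM1 itself varied by 0.0996 and the median gene differed from it by 0.127. SELENOI, an enzyme of phosphatidylethanolamine synthesis, had 12.8, 12.5 and 12.2 FPKM with K-3, against 14.3, 14.6 and 14.7 FPKM in Control. Nearest to TPM4 were VRK2, TBL2 and STT3A (0.0140 to 0.0179), and nearest to TAGLN were RASSF7, SEC11C and ACOT2 (0.0153 to 0.0243). With 6 libraries in 2 groups and so many genes, such closeness is a description only.

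Markers of other cell types moved with the groups in part. The 12 mesenchyme and fibroblast markers summed to 95.6 to 101 FPKM with K-3 and 53.1 to 88.0 FPKM in Control, a difference carried by the filament gene VIM. VIM had 73.1, 71.7 and 70.1 FPKM with K-3, against 38.57, 61.59 and 28.97 FPKM in Control (log2 fold change 0.79, limma adjusted p = 0.118), so it did not pass. Of the other markers DCN, LUM and PRRX1 were near 0 and POSTN was at 0 in all libraries. Of these markers 3 were high enough to test and none of these passed. PDGFRA averaged 20.4 FPKM with K-3 and 19.1 FPKM in Control, and COL1A1 averaged 5.22 and 4.65 FPKM. COL1A2 and PDGFRB, below 1 FPKM, also had higher means with K-3. COL3A1, THY1 and TWIST1 had lower means with K-3 on few fragments. COL3A1 and TWIST1 averaged 0.0127 and 0.0808 FPKM with K-3, against 0.0286 and 0.162 FPKM in Control. The K-3 group thus had higher VIM and lower TPM1 than Control. The K-3 libraries stood in the same order for both genes, and Control replicate 3 was the lowest Control library for both. The highest Control library was replicate 2 for VIM and replicate 1 for TPM1. The TPM1 values of a group lay close together, so these orders are a description only. Any part of VIM in the TPM1 result was not tested. The 4 endothelial markers summed to at most 0.126 FPKM with K-3 and 0.111 FPKM in Control. The 7 cardiac and skeletal muscle markers summed to 9.69 to 10.9 FPKM with K-3 and 9.60 to 9.84 FPKM in Control. MYL7 made up nearly all of this, and it was the only 1 of the 7 with a mean of at least 1 FPKM. The 4 pluripotency markers summed to 346 to 351 FPKM with K-3 and 345 to 379 FPKM in Control, nearly all of it LIN28A.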

How the data were processed

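RNA-seq was measured in 6 libraries, 3 with K-3 and 3 Control, grouped by their titles. The authors deposited FPKM per gene and library; per the submitters' processing notes, the build was GRCh38 and the tools included featureCounts 1.5.0-p3, HISAT2 2.0.5 and DESeq2 1.20.0. The labels' protocol describes directional and non-directional libraries without saying which was made, so reads of overlapping genes cannot be told apart. All 58735 gene IDs and positions equal those of GENCODE 29. FPKM times gene length was a whole multiple of a step in each library (100% of values within a relative 1e-06), which gave whole fragments; the library sizes behind the FPKM lay within 0.459% of median-of-ratios size factors. With 3 fragments a gene of 1 kb has 0.0591 to 0.0834 FPKM, a floor that covers counting error alone, because no molecular identifiers are described and duplicate reads may stem from 1 molecule. Pairs of libraries had a chi-square per degree of freedom of 8.29 to 43.3, so none agreed within sampling noise.

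The 12989 genes whose mean reached 1 FPKM were tested with limma 3.58.1 (trend, R 4.3.3) on log2(FPKM + 1), which understates the change of low genes, two-sided, with Benjamini-Hochberg adjustment over all of them and a threshold of 0.05. The fits were also run on simulated fragments with known changes and the same spread setting for every gene. That simulation held no shifts shared by the genes of a library, so it cannot speak to how stable the calls are here. Shares within a family and ratios used exact permutation tests (scipy 1.17.1). The alternatives were another pseudocount, other minimum levels, other scalings, protein-coding genes only, a replicate block, limma voom on recovered fragments and leaving out each library. The members and lists were chosen with earlier results of these data known. All 10 members are described; from each list the genes past the threshold are named, or else the 2 with the smallest p, apart from some that are not reported here, and the 3 nearest profiles are given for the 3 members with the smallest p.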

Additional observations from a re-analysis of the deposited data

How the results depend on the processing

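The numbers of genes called higher and lower in all, 148 and 117, depended strongly on the setting: 0 and 0 with no minimum level (1904 and 2268 at an unadjusted p under 0.05, limma), 237 higher with a minimum mean of 5 FPKM, 405 and 289 among protein-coding genes only, 412 and 400 by voom, and 117 and 152 after rescaling without mitochondrial-encoded genes. Leaving out 1 library gave 0 to 271 higher and 0 to 446 lower. Among the 10 members 1 was lower; this was 0 with no minimum, with trimmed mean scaling and with the replicate block, and 0 to 1 when a library was left out. Of the companion genes, 2 lower became 0 with no minimum, 4 without mitochondrial-encoded genes, 5 among protein-coding genes, 5 by voom and 0 to 3 without 1 library, while 1 was higher among protein-coding genes and 2 by voom. Fewer libraries and a different number of genes tested are part of these settings; other causes were not tested.

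No pairing of the libraries by replicate number was seen. The deviations of same-numbered libraries from their group means had correlations of -0.364, -0.0335 and -0.113, and no library was closest to its own number. With 3 libraries centred in each group these correlations depend on each other, so they cannot settle whether the numbers mark pairs. With the number as a block 0 genes were called higher and 0 lower (1120 and 1014 at an unadjusted p under 0.05, limma), 0 members and 0 companion genes among them.

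The log2 fold change of TPM3 turned to 0.0135 with trimmed mean scaling and ranged from -0.0432 to 0.0418 when 1 library was left out, positive without K-3 replicate 3, Control replicate 1 or Control replicate 3. That of MYL9 turned to 0.00086 with trimmed mean scaling and ranged from -0.0492 to 0.0429, positive without K-3 replicate 1 or Control replicate 1. The other 7 tested members kept their sign. In percentage points, K-3 minus Control, the TPM1 share moved from -1.20 to -1.65 in fragments and -2.41 per median coding transcript; TPM2 from 0.920 to 0.436 in fragments; TPM3 from 1.38 to 1.89 in fragments, 0.507 with pseudogene copies and 2.05 per median transcript; and TPM4 from -1.09 to -0.677, -0.575 and -0.321 under the same settings. The ACTA1 and ACTC1 shares moved from -0.0702 and -0.0715 to -0.0330 and -0.103 in fragments. The signs of these 6 shares were kept in all of these settings. The TPM4 groups overlapped in fragments and per median transcript, and the TPM3 groups overlapped with pseudogene copies added. Depth limits ACTA2 most, at 31 to 64 fragments per library.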
